A study of Rattus norvegicus with 8 samples.

Results

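The circadian clock genes described here are 10 genes of the molecular clock, read in H9C2 cells that carried 1 of 3 forms of the nuclear receptor PPARα or a fluorescent protein alone. They were chosen by name, as the features called Clock, Arntl, Per1, Per2, Per3, Cry1, Cry2, Nr1d1, Nr1d2 and Dbp in a deposited count table of 32258 features. All 10 were found, and all 10 were among the 12407 features that passed the filter on low exon reads. The rule itself uses the names and no measured value.

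In mammals, the clock is a transcription loop that runs in most cells. The proteins CLOCK and BMAL1 (the product of Arntl) pair and activate genes through E-boxes, among them the Per and Cry genes, whose products return to the nucleus and inhibit the pair. The same pair drives Nr1d1 and Nr1d2, which encode the nuclear receptors REV-ERBα and REV-ERBβ and repress Arntl through ROR elements, and Dbp, an activator that binds D-boxes in output genes. In mouse liver, Ppara is itself under clock control and PPARα is described as an activator of Arntl. In heart muscle the clock is known for timing the use of fatty acids and glucose.

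Poly(A) RNA was sequenced from 8 libraries of H9C2, a rat line from embryonic heart whose labels give the cell type as cardiomyoblast. Cells were transduced for 2 days with the vector pDC316 carrying YFP-PPARα-S280D (serine 280 replaced by aspartate, which mimics phosphorylation), YFP-PPARα-S280A (replaced by alanine, which resists phosphorylation), YFP-PPARα wild type (WT) or YFP alone (YFP), with 2 libraries in each group. All groups thus share the cell line, its own Ppara gene, the vector and YFP. The promoter that drives the inserts, the time of day at harvest and any synchronization of the cells are not stated in the labels, so a different level and a different phase of a rhythm cannot be told apart from 1 time point. Whether a group's 2 libraries were separate cultures is not stated either, and the p-values cover the spread between these libraries, which may be technical.

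The libraries held 14018785 to 39526013 exon reads and 2130257 to 6632616 intron reads. Ppara stood at 17900 and 17700 CPM (counts scaled to a common library size by TMM) in the S280D libraries, 17400 and 13700 CPM in S280A, 12400 and 24100 CPM in WT, and 74.4 and 59.5 CPM in YFP, so every construct library was far above the control. Of 10 cardiac marker genes only Gata4 reached a mean of 1 CPM, while Nkx2-5, Tbx5 and Myh6 stayed at or below 0.483 CPM in each library. Of 11 skeletal myoblast markers 3 reached that level (Mef2c, Acta1 and Tnnt2). So did 6 of 7 fibroblast markers and 4 of 4 smooth muscle markers. The cardiac list thus gave little to bear out the labelled cell type. Mef2c and Tnnt2 were counted with the skeletal list only, so these counts do not settle the cell type. The summed smooth muscle markers stood at 8760 and 10000 CPM in S280D, 13200 and 17400 CPM in S280A, 9730 and 10300 CPM in WT, and 14600 and 12300 CPM in YFP. The summed fibroblast markers were 77400 and 80300 CPM in S280D, 97100 and 110000 CPM in S280A, 77900 and 85300 CPM in WT, and 94500 and 95600 CPM in YFP. Both sums, which rest mostly on Acta2, Tagln, Fn1, Col1a1 and Col1a2, were lower in the S280D and WT libraries than in the S280A and YFP libraries, the same split that Clock and Nr1d2 show in the opposite direction below. Not all markers followed it. Myh11 stood at 5.42 and 5.19 CPM in S280D, 4.56 and 3.46 CPM in S280A, 5.75 and 5.07 CPM in WT, and 4.51 and 4.55 CPM in YFP, Dcn was higher in S280D than in S280A (0.47 ± 0.15 on the log2 scale, adjusted p 0.0316, edgeR), and Fn1 and Thy1 did not pass against YFP. The part of these markers in the results was not tested. Of the macrophage, epithelial and endothelial markers, 1 each reached a mean of 1 CPM (Cd14, Krt8 and Tek), and Ptprc was at 0 in every library.

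The clock genes did not move as a block. Clock and Nr1d2 were higher with S280D and with WT than with YFP, and lower with S280A than with WT. Between S280A and YFP none of the 10 genes passed the test. Arntl was higher and Nr1d1 lower with S280D than with S280A, and Dbp was lower with S280D than with YFP. The Per and Cry genes passed in none of the 6 comparisons on exon reads. A gene was counted as higher or lower where the quasi-likelihood test of edgeR, adjusted over all features tested, gave a p under 0.05.

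Counted by comparison, 3 of the 10 clock genes were higher and 1 was lower in S280D than in S280A, where 39.3% of all 12407 features passed. In S280D against YFP, 2 were higher and 1 was lower, where 30.7% of all features passed. In S280A against WT, 2 were lower and 0 higher, and 26.0% of all features passed. In WT against YFP, 2 were higher and 0 lower, and 19.6% of all features passed. These shares of the clock genes lie near the shares over all features, so the counts alone set the clock genes apart from no other genes. In S280A against YFP, edgeR called 0 of the 10 and DESeq2 0, none of them reached even an unadjusted p of 0.05, and 0.0403% of all features passed. In S280D against WT, edgeR and DESeq2 again called 0 of the 10, with 0 at p under 0.05 before adjustment, and 0.0403% of all features passed. The 3 comparisons with YFP share the YFP libraries, and comparisons with 1 construct in common share its libraries, so the 6 are not independent.

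The median log2 fold change of the 10 genes was 0.18 in S280D against S280A, where that of all features was -0.01. It was 0.05 in S280D against YFP and 0.07 in WT against YFP, beside -0.02 and -0.01 over all features. It was -0.12 in S280A against WT (all features 0.01), -0.13 in S280A against YFP (all features -0.02) and 0.01 in S280D against WT (all features 0.0). These medians are not matched for exon length, which ran from 1702 to 9419 bases in the clock genes, beside a median of 2314 over all features. In S280D against S280A, bins of all features with median exon lengths of 3585 and 4482 bases had medians of 0.103 and 0.192. The part of exon length in the median of the clock genes was not tested. The median also hid changes in both directions, which the plot of exon reads by library shows gene by gene.

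**Figure D1:**
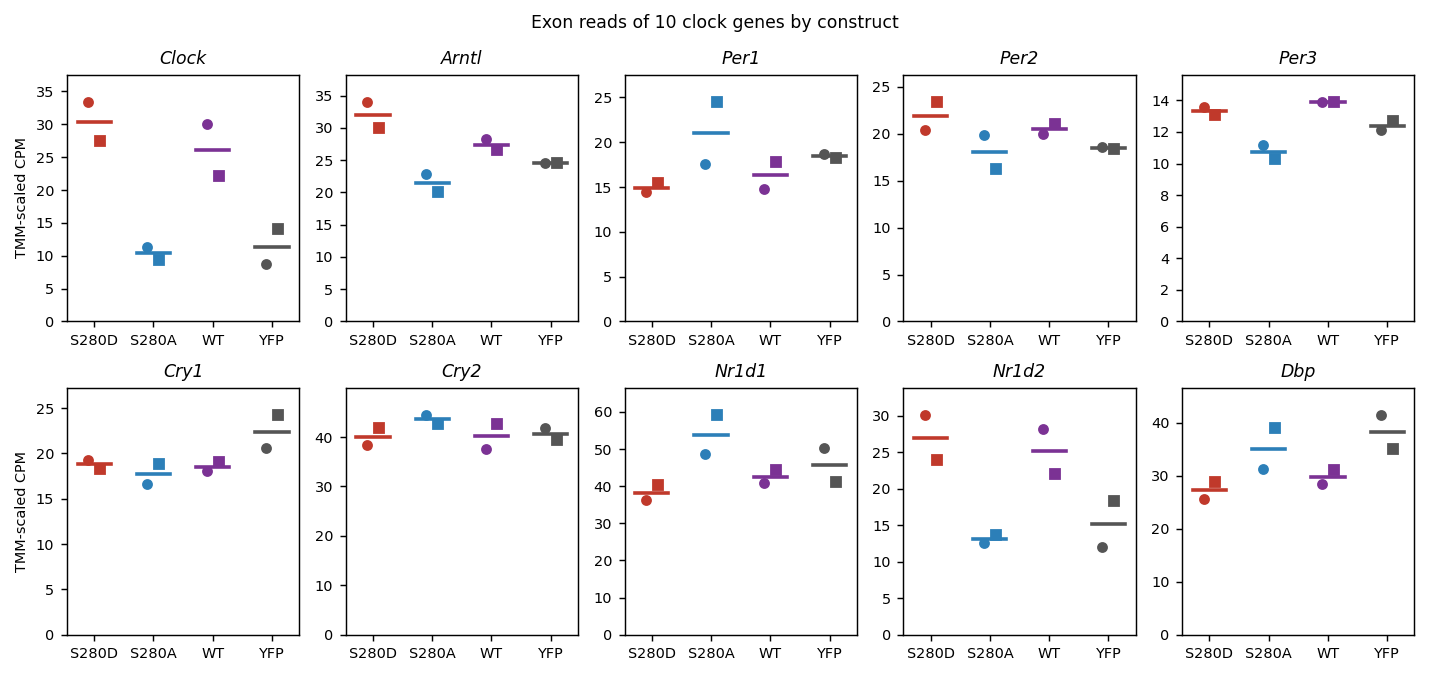
Exon reads of the 10 clock genes by library (TMM-scaled CPM) on axes that start at 0. Circles are replicate 1, squares replicate 2 and bars the mean of 2 libraries. The S280D and WT libraries of Clock (22.2 to 33.4 CPM) and of Nr1d2 (22.1 to 30.1 CPM) all lie above the S280A and YFP libraries (at most 14.1 and 18.3 CPM), while Cry2 stays between 37.6 and 44.4 CPM in all 8.

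Clock encodes the histone acetyltransferase partner of BMAL1 in the activating arm of the loop. Its exon reads stood at 33.4 and 27.4 CPM in S280D, 11.4 and 9.34 CPM in S280A, 30.1 and 22.2 CPM in WT, and 8.67 and 14.1 CPM in YFP. Every S280D and WT library was above every S280A and YFP library, and S280A and YFP overlapped. In bulk RNA, fewer cells that express a gene and less RNA per cell cannot be told apart. The log2 fold change was 1.55 ± 0.24 (SE) in S280D against S280A, a 2.92-fold difference, with an adjusted p of 0.0019 (edgeR). It was 1.41 ± 0.24 in S280D against YFP, 2.66-fold, with an adjusted p of 0.00247. In S280A against WT, Clock fell by 1.33 ± 0.25 on the log2 scale, to 0.398 of the WT level, with an adjusted p of 0.00823 (edgeR). In WT against YFP it rose by 1.20 ± 0.24, 2.29-fold, with an adjusted p of 0.00929.

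The difference between S280D and WT in Clock was 0.22 ± 0.23 and that between S280A and YFP -0.13 ± 0.25 on the log2 scale, with adjusted p of 0.948 and 0.86 (edgeR). Neither passed, and with 2 libraries a group neither shows the groups to be alike. Of the called differences, those of S280D against S280A and against YFP kept an adjusted p under 0.05 whichever library was left out. The WT against YFP call ended without WT replicate 1 (0.96, adjusted p 0.107) and without YFP replicate 1 (0.89, adjusted p 0.0534). The S280A against WT call ended without WT replicate 1 (-1.09, adjusted p 0.089) and without S280A replicate 2 (-1.16, adjusted p 0.104).

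Arntl encodes BMAL1, the partner without which the loop does not run in mice. It stood at 34.0 and 30.0 CPM in S280D, 22.8 and 20.1 CPM in S280A, 28.3 and 26.5 CPM in WT, and 24.5 in both YFP libraries. The 4 groups did not overlap in Arntl, with S280D highest, then WT, YFP and S280A. Only S280D against S280A passed, at a log2 fold change of 0.58 ± 0.14 and an adjusted p of 0.0107 (edgeR). S280D against YFP stood at 0.39 ± 0.14 with an adjusted p of 0.0564, and S280A against WT at -0.35 ± 0.15 with an adjusted p of 0.0929. The call ended without S280A replicate 2 (0.48, adjusted p 0.0955) and without S280D replicate 1 (0.50, adjusted p 0.104). On reads that span an exon-exon junction the difference was 0.26 ± 0.21 with an adjusted p of 0.388.

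The Period genes encode the proteins that carry the inhibiting complex into the nucleus. Per1, which in mice also responds quickly to serum and hormones, stood at 14.4 and 15.5 CPM in S280D, 17.6 and 24.5 CPM in S280A, 14.8 and 17.8 CPM in WT, and 18.7 and 18.3 CPM in YFP. Per2 stood at 20.4 and 23.4 CPM in S280D, 19.9 and 16.3 CPM in S280A, 20 and 21 CPM in WT, and 18.6 and 18.4 CPM in YFP. Per3, the member whose loss is best tolerated in mice, stood at 13.6 and 13.1 CPM in S280D, 11.2 and 10.3 CPM in S280A, 13.9 in both WT libraries, and 12.1 and 12.7 CPM in YFP. Both S280A libraries were the lowest of all for Per3, while for Per1 S280A replicate 2 was the highest. The closest to the threshold was Per1 in S280D against S280A, at a log2 difference of -0.49 ± 0.18 and an adjusted p of 0.0532 (edgeR). It did pass on unique exon reads (-0.50 ± 0.18, adjusted p 0.0396) and without S280A replicate 1. Per2 and Per3 had positive values in the same comparison, 0.27 ± 0.16 and 0.32 ± 0.16, with adjusted p of 0.197 and 0.138.

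The cryptochromes encode the main repressors of CLOCK and BMAL1. Cry1 stood at 19.3 and 18.3 CPM in S280D, 16.6 and 18.8 CPM in S280A, 18.1 and 19 CPM in WT, and 20.6 and 24.2 CPM in YFP. All 6 construct libraries were below both YFP libraries, yet no comparison passed. The log2 differences from YFP were -0.25 ± 0.15 in S280D, -0.34 ± 0.16 in S280A and -0.28 ± 0.16 in WT, with adjusted p of 0.231, 0.433 and 0.228 (edgeR). These 3 values share the YFP libraries. Of the exon reads of Cry1, 70.9% were counted as unique by the authors. On unique reads the differences from YFP were smaller, -0.05 ± 0.16 in S280D, -0.19 ± 0.17 in S280A and -0.16 ± 0.16 in WT, with adjusted p of 0.834, 0.679 and 0.502. Cry2 was the steadiest of the 10, at 38.4 and 41.8 CPM in S280D, 44.4 and 42.7 CPM in S280A, 37.6 and 42.7 CPM in WT, and 41.8 and 39.4 CPM in YFP. Its 8 libraries spanned 0.239 on the log2 scale, against 1.93 for Clock.

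Nr1d1 and Nr1d2, the REV-ERB genes of the stabilizing arm, went apart. Nr1d2 stood at 30.1 and 23.9 CPM in S280D, 12.6 and 13.7 CPM in S280A, 28.2 and 22.1 CPM in WT, and 12 and 18.3 CPM in YFP. As with Clock, every S280D and WT library was above every S280A and YFP library. The log2 fold change of Nr1d2 was 1.04 ± 0.22 in S280D against S280A (adjusted p 0.00536, edgeR). It was 0.83 ± 0.22 in S280D against YFP (adjusted p 0.0156) and 0.73 ± 0.22 in WT against YFP (adjusted p 0.0381). In S280A against WT Nr1d2 fell by 0.94 ± 0.22 on the log2 scale, with an adjusted p of 0.0149.

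The difference in Nr1d2 between S280D and S280A kept its call whichever library was left out. S280D against YFP lost it without S280D replicate 1 (0.67, adjusted p 0.129) and without YFP replicate 1 (0.56, adjusted p 0.113). S280A against WT lost it without WT replicate 1 (-0.75, adjusted p 0.141) and without S280A replicate 2 (-0.97, adjusted p 0.111). WT against YFP was the weakest Nr1d2 call, and it ended without WT replicate 1 (0.54, adjusted p 0.285), without WT replicate 2 (0.89, adjusted p 0.0578) and without YFP replicate 1 (0.46, adjusted p 0.215).

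Nr1d1 stood at 36.3 and 40.2 CPM in S280D, 48.7 and 59.1 CPM in S280A, 40.9 and 44.3 CPM in WT, and 50.2 and 41.1 CPM in YFP. Both S280D libraries were below both S280A libraries, where Nr1d2 had the opposite order. Nr1d1 fell by 0.49 ± 0.15 on the log2 scale in S280D against S280A, with an adjusted p of 0.0224 (edgeR), and passed in no other comparison on exon reads. The call ended without S280A replicate 2 (-0.36, adjusted p 0.171), without S280D replicate 1 (-0.41, adjusted p 0.186) and on junction reads (-0.53 ± 0.27, adjusted p 0.157). Nr1d1 lies on chromosome 10 from 86683874 to 86690815 in Rnor_6.0, and the 1060 bases from 86683874 to 86684933 in the deposited coordinates also belong to Thra, which encodes a thyroid hormone receptor. Of the exon reads of Nr1d1, 79.9% were counted as unique, and on these the difference was -0.53 ± 0.14 with an adjusted p of 0.0103. Thra itself stood at 54.0 and 57.8 CPM in S280D and 66.2 and 82.5 CPM in S280A, a log2 difference of -0.41 ± 0.13 with an adjusted p of 0.0311 (edgeR). How many reads the counting gave to both genes was not tested.

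Dbp, the D-box activator and a direct output of CLOCK and BMAL1 in mouse tissues, stood at 25.7 and 28.8 CPM in S280D, 31.2 and 39.0 CPM in S280A, 28.4 and 31.1 CPM in WT, and 41.4 and 35.0 CPM in YFP. Both S280D libraries were below both YFP libraries, and so were both WT libraries. Dbp fell by 0.49 ± 0.16 on the log2 scale in S280D against YFP, with an adjusted p of 0.0344 (edgeR). WT against YFP stood at -0.36 ± 0.16 with an adjusted p of 0.124. The Dbp call was the least stable on exon reads. Leaving out either S280D library (-0.39 without replicate 1 and -0.57 without replicate 2, adjusted p 0.261 and 0.0653), YFP replicate 1 (-0.37, adjusted p 0.197) or either WT library (-0.49 each, adjusted p 0.0567 and 0.0605) ended it.

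**Figure D2:**
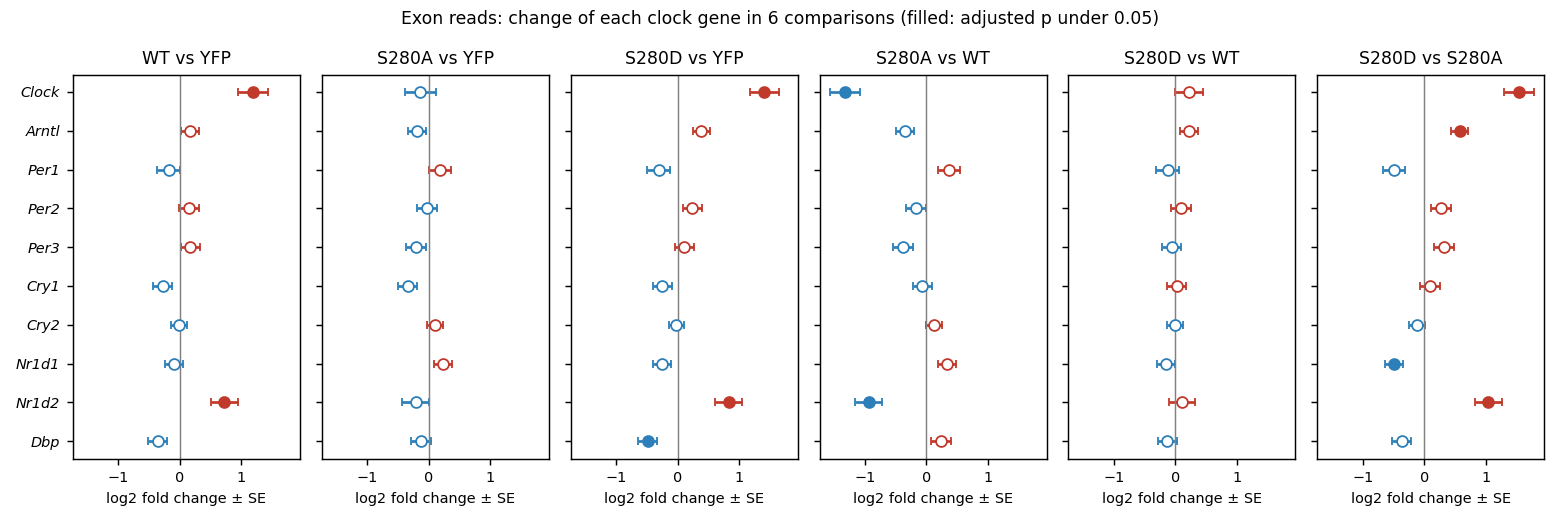
Log2 fold change of exon reads of each clock gene (horizontal axis, with SE derived from edgeR's test on 8 libraries) in 6 comparisons. Filled points have an adjusted p under 0.05 over 12407 features, red is higher and blue lower in the group named first. Clock and Nr1d2 are filled in the same 4 panels, and no point is filled in S280A vs YFP or S280D vs WT.

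The authors' deposited table holds their own pairwise tests. In the authors' deposited table the signed fold of Clock in S280D against S280A is 2.95 with an adjusted p of 2.35e-07, and that of Nr1d2 is 2.08 with an adjusted p of 0.000302. In the authors' deposited table, too, Clock and Nr1d2 have an adjusted p under 0.05 in S280D against S280A, S280D against YFP, WT against YFP and S280A against WT. The authors' deposited table gives Arntl a fold of 1.51 (adjusted p 0.00873) and Nr1d1 a fold of -1.40 (adjusted p 0.0474) in S280D against S280A. For Dbp in S280D against YFP the authors' deposited table gives -1.39 with an adjusted p of 0.0751, which did not pass.

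The column headers name 2 sequencing lanes. Both WT libraries were run in lane 2 and both YFP libraries in lane 1, so no lane holds both groups of WT against YFP. S280D replicate 1 and S280A replicate 2 ran in lane 1, S280D replicate 2 and S280A replicate 1 in lane 2. Within lane 1 and lane 2, S280D exceeded S280A in Clock by 1.83 and 1.25, in Nr1d2 by 1.13 and 0.92 and in Arntl by 0.75 and 0.39 on the log2 scale, with 1 library a group in each lane. Nr1d1 differed by -0.70 in lane 1 and -0.27 in lane 2. Within lane 1, S280D replicate 1 against the 2 YFP libraries stood at 1.59 for Clock, 1.01 for Nr1d2 and -0.57 for Dbp. Within lane 2, S280A replicate 1 against the 2 WT libraries stood at -1.17 for Clock and -0.99 for Nr1d2. With lane as a term, Clock in WT against YFP was 1.23 ± 0.36 with an adjusted p of 0.153, and Nr1d2 was 0.96 ± 0.32 with an adjusted p of 0.188 (edgeR). Neither value was smaller than without the term, and both SE were larger. Dbp in S280D against YFP was -0.45 ± 0.20 with lane as a term and no longer passed (adjusted p 0.14). Over all 12407 features, 9 passed with lane as a term in WT against YFP, beside 2437 without it. In S280D against YFP 1654 passed, beside 3815.

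Exon length differed among the clock genes, and over all features tested it was related to the log2 fold changes. The deposited annotation gives 1 exon length per gene, over all its exons. Clock (chromosome 14, 34446615 to 34502218) has the greatest of the 10, 9419 bases over 24 exons. Dbp (chromosome 1, 101687854 to 101692846) has the smallest, 1702 bases. Nr1d2 (chromosome 15, 8730870 to 8757165) has 4610 bases, and Arntl (chromosome 1, 178039062 to 178137465) has 2973. The 12407 features tested had a median exon length of 2314 bases. Among them a greater exon length per gene went with higher log2 fold changes in S280D against S280A (Spearman's rho 0.24) and in S280D against YFP (0.238). The rho was -0.206 in S280A against WT, 0.186 in WT against YFP and -0.0544 in S280A against YFP. It was 0.184 in S280D against WT, where 0.0403% of all features passed. These are descriptions across genes of the same libraries.

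An offset for exon length in each library lowered the 2 largest changes without ending them. With it, Clock in S280D against S280A was 1.01 ± 0.19 (adjusted p 0.00218) and Nr1d2 was 0.73 ± 0.20 (adjusted p 0.0105) in edgeR. Arntl was 0.41 ± 0.14 (adjusted p 0.0355) and Nr1d1 -0.62 ± 0.16 (adjusted p 0.00836). Per1, with an exon length of 4049 bases, was -0.77 ± 0.20 (adjusted p 0.0091), and Cry2, with 3970 bases, was -0.38 ± 0.14 (adjusted p 0.0444). So with the offset 3 of the 10 were higher and 3 lower in S280D against S280A, beside 3 and 1 without it, and 43.0% of all features passed. The offset also moved the median of all features in this comparison to -0.13, beside -0.01 without it, and gave 2169 features higher and 3162 lower, beside 2641 and 2232. Per1 and Cry2 lay below that median. In S280D against YFP the offset gave 2 higher and 2 lower, beside 2 and 1, with 35.2% of all features called and their median at -0.13. In S280A against WT it gave 1 higher and 2 lower, beside 0 and 2, with 29.9% of all features called and their median at 0.10. Per1 was the added gene in both. Nr1d2 in WT against YFP was 0.54 ± 0.19 with the offset and no longer passed (adjusted p 0.0552).

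**Figure D3:**
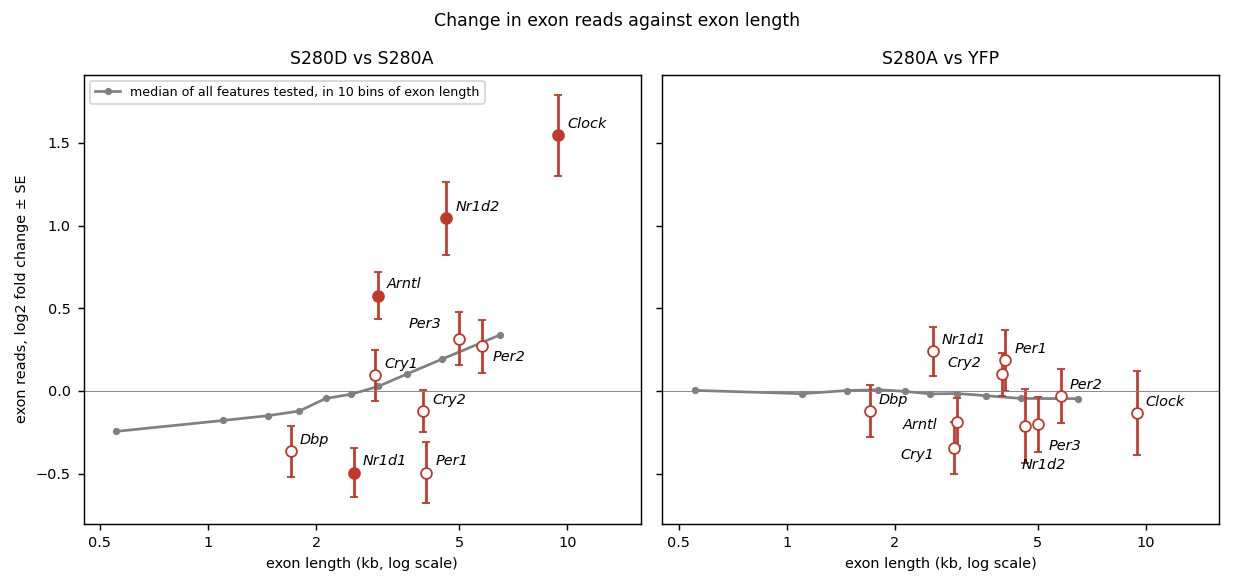
Log2 fold change of exon reads (vertical axis, with SE) against exon length in kb (log scale) for the 10 clock genes in red, filled where the adjusted p is under 0.05, and the median of all features in 10 bins of exon length in grey. In S280D vs S280A the grey line runs from -0.245 in the shortest bin to 0.337 in the longest. Clock, Nr1d2 and Arntl lie above it, as do Per3 and Cry1, which were not called. In S280A vs YFP the line runs from 0.003 to -0.047.

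Per kilobase of exon the clock genes were expressed at unlike levels. Dbp and Nr1d1 were the highest of the 10 in every group. Dbp averaged 16 CPM per kb in S280D, 20.6 in S280A, 17.5 in WT and 22.4 in YFP. Nr1d1 averaged 15.0 CPM per kb in S280D, 21.1 in S280A, 16.7 in WT and 17.9 in YFP. Cry2, with group means between 10.1 and 11 CPM per kb, and Arntl, between 7.22 and 10.8, followed. Per2 and Per3 lay between 2.15 and 3.79 CPM per kb in every group. Clock was among the lowest, at 3.22 CPM per kb in S280D, 1.10 in S280A, 2.78 in WT and 1.21 in YFP. It was the lowest of the 10 in S280A, in YFP and, beside 2.79 for Per3, in WT.

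Intron reads gave a second, sparser reading of the same genes. Of the 10, 9 passed the filter on intron reads, and Per1, with 4 to 23 intron reads a library, did not. Only Nr1d1 in S280D against YFP passed. It stood at 24.9 and 26.9 CPM of intron reads in S280D, 37.4 and 55.1 CPM in S280A, 37.7 and 33.7 CPM in WT, and 61.5 and 45.8 CPM in YFP. Both S280D libraries were the lowest of the 8. Intron reads of Nr1d1 fell by 1.05 ± 0.24 on the log2 scale in S280D against YFP, to 0.484 of the YFP level, with an adjusted p of 0.0286 (edgeR), while the exon reads differed by -0.26 ± 0.15 with an adjusted p of 0.206. The intron call ended without either S280D library (-0.97 and -1.09, adjusted p 0.242 and 0.111), without YFP replicate 1 (-0.83, adjusted p 0.213), without either WT library (-1.04 and -1.03, adjusted p 0.0558 and 0.0605) and with lane as a term (-0.94, adjusted p 0.134).

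Against these intron counts, 5.35% of the 12988 features tested on intron reads passed in S280D against YFP. In S280D against S280A edgeR called 0 of 9 on intron reads, 2 had an unadjusted p under 0.05, DESeq2 called 0, and 4.54% of all features passed. In WT against YFP it called 0, with 3 at an unadjusted p under 0.05, 0 in DESeq2 and 2.02% of all features. In S280A against YFP the counts were 0, 1 and 0 beside 0.0154% of all features called by edgeR, in S280A against WT 0, 0 and 0 beside 0.0077%, and in S280D against WT 0, 0 and 0 beside 0.0%. Intron reads made up 14.2% to 15.8% of exon and intron reads together in the construct libraries and 10.99% and 11.9% in the YFP libraries, and the part of this in the comparisons with YFP was not tested.

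**Figure D4:**
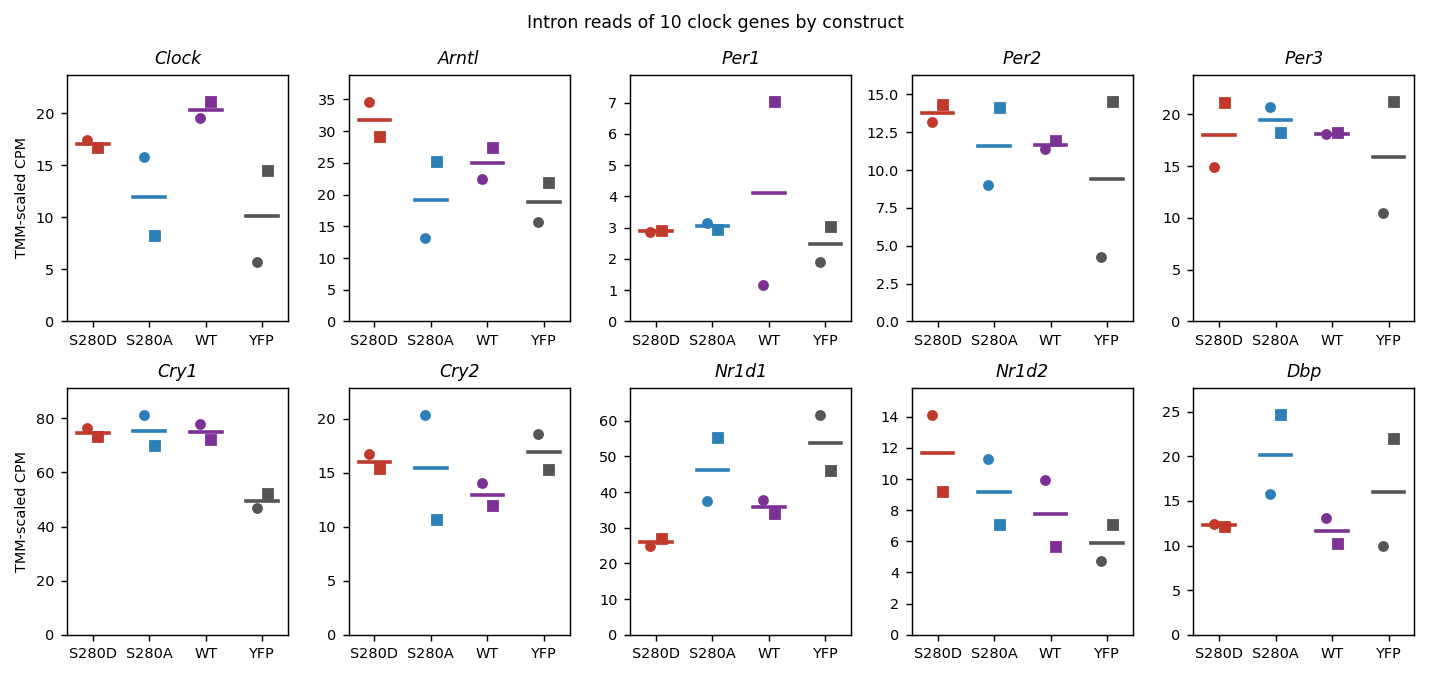
Intron reads of the 10 clock genes by library (TMM-scaled CPM) on axes that start at 0, with circles for replicate 1, squares for replicate 2 and bars for the mean of 2 libraries. All 6 construct libraries of Cry1 (69.8 to 81.1 CPM) lie above both YFP libraries (46.7 and 51.9 CPM), and the 2 YFP libraries of Per2 lie at 4.29 and 14.5 CPM.

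For Clock, intron reads stood at 17.4 and 16.7 CPM in S280D, 15.8 and 8.21 CPM in S280A, 19.6 and 21.1 CPM in WT, and 5.72 and 14.5 CPM in YFP, from 12 to 140 reads a library. S280D and WT were again above S280A and YFP in every library, but the log2 differences of 0.48 ± 0.39 in S280D against S280A and 0.70 ± 0.38 in S280D against YFP did not pass (adjusted p 0.504 and 0.283, edgeR). For Nr1d2, with 10 to 113 intron reads, they were 0.34 ± 0.42 and 0.96 ± 0.43, with adjusted p of 0.676 and 0.19. Arntl intron reads stood at 34.6 and 29 CPM in S280D, 13.1 and 25.2 CPM in S280A, 22.5 and 27.4 CPM in WT, and 15.7 and 21.9 CPM in YFP. Their log2 difference was 0.77 ± 0.31 in S280D against S280A, with an adjusted p of 0.167. The SE of these 3 genes in the 2 comparisons ran from 0.30 to 0.43 on intron reads and from 0.14 to 0.24 on exon reads.

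Cry1 had values of opposite sign on intron reads and on total exon reads. Intron reads stood at 76.4 and 72.9 CPM in S280D, 81.1 and 69.8 CPM in S280A, 77.7 and 71.9 CPM in WT, and 46.7 and 51.9 CPM in YFP. All construct libraries were above both YFP libraries, while on total exon reads all were below. On unique exon reads the differences from YFP given above were about the size of their SE or smaller. The log2 differences of intron reads from YFP were 0.60 ± 0.20 in S280D, 0.61 ± 0.21 in S280A and 0.60 ± 0.21 in WT, with adjusted p of 0.0955, 0.339 and 0.149 (edgeR). The difference between the exon and the intron change was -0.83 ± 0.25 in S280D, -0.96 ± 0.26 in S280A and -0.88 ± 0.25 in WT, with adjusted p of 0.0545, 0.179 and 0.0793. None of these passed, and the 3 share the YFP libraries. In S280D against YFP, Cry1 passed in this test when either S280A library was left out, and Nr1d1 when S280A replicate 2 was. The share of all features that passed in those refits is not given, so these calls cannot be read as particular to the clock genes.

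Tested as the exon change minus the intron change, 0 of 9 clock genes passed in any of the 6 comparisons in edgeR. The number with an unadjusted p under 0.05 was 2 in S280D against YFP, where 4.62% of all 9892 features tested passed, and 1 in S280D against S280A, where 5.84% passed. It was 1 in WT against YFP (1.96% of all features), 1 in S280A against YFP (0.0101%), 1 in S280A against WT (1.03%) and 0 in S280D against WT (0.0%). For Clock the exon change exceeded the intron change by 1.05 ± 0.37 in S280D against S280A, with an adjusted p of 0.105. For Nr1d1 it did so by 0.80 ± 0.25 in S280D against YFP, with an adjusted p of 0.0682.

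**Figure D5:**
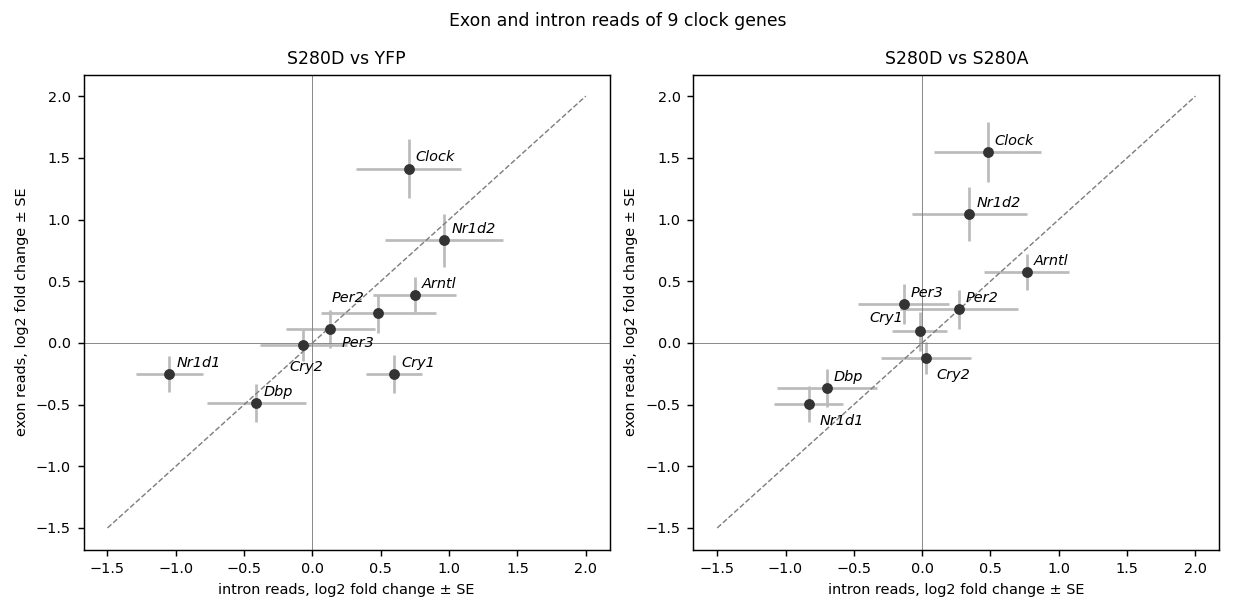
Log2 fold change of exon reads (vertical axis) against that of intron reads (horizontal axis), each with its SE, for the 9 clock genes that passed both filters, in S280D vs YFP and S280D vs S280A. The dashed line marks equal change, and in S280D vs YFP Cry1 (0.60 on intron and -0.25 on exon reads) lies below it and Nr1d1 (-1.05 and -0.26) above it, while Clock lies highest in both panels.

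Reads that span an exon-exon junction come from spliced RNA, and this count was looked at after the other results. On junction reads Clock in S280D against S280A was 1.48 ± 0.31 (adjusted p 0.00182) and in WT against YFP 1.88 ± 0.32 (adjusted p 0.000922) in edgeR. Nr1d2 in S280D against S280A was 1.31 ± 0.40 (adjusted p 0.0208). Dbp, lower on total exon reads in S280D against YFP, was -1.17 ± 0.27 on junction reads (adjusted p 0.00436), and it was also called in S280D against S280A (-0.82 ± 0.29, adjusted p 0.0389). Nr1d2 in WT against YFP was 1.11 ± 0.39 and did not pass (adjusted p 0.0585).

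Across the 8 libraries the profiles of the clock genes were compared by the root mean square distance of their log2 CPM, each centred on its mean, which is a description. Clock was nearest to Nr1d2 among the members, at 0.274, while its distances to the other members lay between 0.543 and 0.938. Per1 was nearest to Nr1d1, at 0.0952, and Per2 to Per3, at 0.115. Nr1d1 and Nr1d2 were 0.675 apart, and Cry1 and Cry2 0.193. Among 8465 genes with a mean of at least 5 CPM, the nearest to Clock was Ppp1cb (0.0786), to Nr1d2 Ubxn2b (0.0826), to Arntl Trappc13 (0.0522), to Nr1d1 Psmd8 (0.0328) and to Dbp Chmp6 (0.0344). Each of these clock genes had a gene outside the clock nearer to it than any other member. The search covered 8465 genes but only a few other members, and a larger pool makes a nearer gene likely by itself. Whether the clock genes go together cannot be read from these distances.

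The 300-base windows around the annotated starts, from 250 bases before to 50 after, were read from RefSeq on the GRCr8 assembly. Of the 10 genes, 9 had 1 window or more, 11 in all, and Cry1 had none. Clock and Nr1d2 are shown because they had the same order of groups, and Arntl and Nr1d1 because they were called in opposite directions in S280D against S280A. Capitals mark a searched motif. The Clock window is chr14:32262500-32262799 on the plus strand, Nr1d2 is chr15:9954784-9955083 on the plus strand, Arntl (listed as Bmal1) is chr1:176766078-176766377 on the plus strand and the second window of Nr1d1 is chr10:84229405-84229704 on the minus strand.
Clock: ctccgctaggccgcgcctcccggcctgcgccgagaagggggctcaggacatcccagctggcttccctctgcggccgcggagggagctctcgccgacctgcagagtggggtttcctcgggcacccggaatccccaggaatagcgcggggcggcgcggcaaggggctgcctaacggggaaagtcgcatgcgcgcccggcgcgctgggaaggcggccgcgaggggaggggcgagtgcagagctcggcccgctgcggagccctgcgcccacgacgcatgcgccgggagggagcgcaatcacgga
Nr1d2: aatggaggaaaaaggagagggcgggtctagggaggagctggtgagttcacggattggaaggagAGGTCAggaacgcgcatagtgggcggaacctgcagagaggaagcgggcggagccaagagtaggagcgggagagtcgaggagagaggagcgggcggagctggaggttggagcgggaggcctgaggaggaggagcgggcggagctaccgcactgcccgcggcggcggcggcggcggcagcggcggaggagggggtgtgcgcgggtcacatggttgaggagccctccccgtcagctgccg
Arntl: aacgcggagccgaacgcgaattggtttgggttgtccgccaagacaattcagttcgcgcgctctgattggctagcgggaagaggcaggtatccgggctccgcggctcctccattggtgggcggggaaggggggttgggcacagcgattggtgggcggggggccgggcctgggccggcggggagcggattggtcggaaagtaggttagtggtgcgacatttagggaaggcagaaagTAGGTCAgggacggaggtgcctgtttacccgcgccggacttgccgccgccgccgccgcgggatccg
Nr1d1: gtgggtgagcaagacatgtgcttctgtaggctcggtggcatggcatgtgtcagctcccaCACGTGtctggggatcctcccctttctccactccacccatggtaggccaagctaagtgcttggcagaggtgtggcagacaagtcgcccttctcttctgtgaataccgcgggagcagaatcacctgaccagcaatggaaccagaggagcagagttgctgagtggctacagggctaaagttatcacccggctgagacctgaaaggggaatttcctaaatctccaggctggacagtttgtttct

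The windows were searched on both strands for the E-box CACGTG, the D-boxes TTATGTAA and TTACGTAA, the core TAGGTCA of ROR elements, the nuclear receptor half-site AGGTCA, which lies within that core, and the CRE TGACGTCA. Arntl held the ROR core from -16 to -10 relative to its start, a motif in 2.63% of 33469 windows. Nr1d2 held a half-site from -187 to -182, which 16.2% of the windows hold, and the second Nr1d1 window held an E-box from -191 to -186, which 6.42% hold. Per2 held a D-box from -192 to -185, in 1.01% of windows. The Clock windows, the first Nr1d1 window and those of Per1, Per3, Cry2 and Dbp held none of these letters, nor did any of the 11 hold the CRE, which 1.83% of all windows hold. A match describes the letters of the window only.

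The partners of the loop outside the 10 genes were read beside the shares of all features called in each comparison, given above. Of 13 such genes 8 passed the filter on exon reads, and Npas2, Arntl2, Rorb and Hlf, with at most 0.145 CPM in any library, were among those that did not. Their median log2 fold change in S280D against S280A was -0.03. In S280D against YFP, 1 was higher and 1 lower. Rora, the activator at ROR elements, stood at 3.36 and 2.78 CPM in S280D and 1.58 and 1.12 CPM in YFP (log2 fold change 1.19 ± 0.39, adjusted p 0.0395, edgeR). Tef, a D-box activator related to Dbp, stood at 28.6 and 32.5 CPM in S280D, 38.7 and 42.4 CPM in S280A and 43.2 and 43.5 CPM in YFP. It fell in S280D by 0.51 ± 0.14 against YFP and by 0.41 ± 0.14 against S280A (adjusted p 0.018 and 0.0346), and was the 1 of 8 partners that passed in S280D against S280A, beside 39.3% of all features. In WT against YFP, 1 partner was higher, Tipin (1.15 ± 0.35, adjusted p 0.0415), and in each of the remaining 3 comparisons edgeR and DESeq2 both called 0, with 0 at an unadjusted p under 0.05. Of these, S280A against WT had 26.0% of all features called, and S280A against YFP and S280D against WT had 0.0403% each. Tef and Dbp, which bind the same element, were both lower in S280D than in YFP, where 30.7% of all features passed and the Dbp call was unstable. Of the 8 partners 5 had a positive and 3 a negative value there. Nfil3 was among the negative ones and did not pass (-0.42 ± 0.16, adjusted p 0.0654, edgeR). A link of these changes to the D-box was not tested.

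Of 12 kinases and ubiquitin ligases that act on clock proteins, 11 were measured, with a median log2 fold change of 0.27 in S280D against S280A, where that of all features was -0.01. In S280D against S280A 5 were higher and 1 lower, in S280D against YFP 4 and 2, in WT against YFP 3 and 2 and in S280A against WT 1 and 1. Of all features 39.3%, 30.7%, 19.6% and 26.0% passed in these comparisons, in the same order. In S280A against YFP and S280D against WT edgeR and DESeq2 called 0, with 2 and 0 at an unadjusted p under 0.05. Csnk1a1, encoding casein kinase 1 alpha, stood at 178 and 158 CPM in S280D, 92.2 and 69.6 CPM in S280A, 166 and 145 CPM in WT, and 84.7 and 116 CPM in YFP. It had the same order of groups as Clock, with log2 fold changes of 1.05 ± 0.17 in S280D against S280A and -0.94 ± 0.17 in S280A against WT (adjusted p 0.00228 and 0.00823, edgeR). Csnk2b, the regulatory subunit of casein kinase 2, was lower, at 115 and 130 CPM in S280D and 194 and 183 CPM in YFP (-0.62 ± 0.14, adjusted p 0.00791).

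Of 7 output genes of the clock, 2 were higher and 3 lower in S280D against S280A, 2 and 2 in S280D against YFP, 3 and 2 in S280A against WT and 2 and 1 in WT against YFP. Of all features 39.3%, 30.7%, 26.0% and 19.6% passed in these comparisons, in the same order. In S280A against YFP and S280D against WT edgeR and DESeq2 called 0, with 1 and 0 at an unadjusted p under 0.05. Nampt, the rate-limiting enzyme of NAD salvage and an E-box target in mice, stood at 166 and 150 CPM in S280D, 84.6 and 65.8 CPM in S280A, 161 and 151 CPM in WT, and 79.8 and 83.8 CPM in YFP. Its S280D and WT libraries all lay above those of S280A and YFP, with a log2 fold change of 1.07 ± 0.14 in S280D against S280A (adjusted p 0.00159, edgeR) and -1.05 ± 0.14 in S280A against WT (adjusted p 0.00554). Por, the electron donor of cytochrome P450 enzymes, had the opposite order, at 53.7 and 61.5 CPM in S280D and 86.2 and 101 CPM in S280A (-0.70 ± 0.13, adjusted p 0.00302).

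Of 11 immediate early genes, which mark a recent serum or handling response and can raise Per1, 10 were measured. In WT against YFP 1 was higher, Fosl1 (0.89 ± 0.23, adjusted p 0.0223), and in S280D against S280A 1 was lower, Junb (-0.40 ± 0.14, adjusted p 0.0443). Of all features 19.6% and 39.3% passed in these comparisons, in the same order. In the remaining comparisons edgeR called 0, with 0 to 2 at an unadjusted p under 0.05 and 0 or 1 in DESeq2. Of these, S280D against YFP had 30.7% of all features called and S280A against WT 26.0%. S280A against YFP and S280D against WT had 0.0403% each. Junb stood at 68.6 and 72.3 CPM in S280D and 84.2 and 101 CPM in S280A, the same order as Per1 in these libraries. Of the 10 genes 9 had a negative value in S280D against S280A and 1 a positive, with a median of -0.11 beside -0.01 over all features. The share of negative values over all features is not given, so the signs alone set these genes apart from no others. Fos (-0.08 ± 0.30), Jun (-0.07 ± 0.12) and Egr1 (-0.13 ± 0.16) differed by less than their SE, as did Nr4a1, Sik1, Atf3 and Fosb. A link between these genes and Per1 was not tested.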

How the data were processed

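The authors deposited 1 table with raw counts per feature (total exon, unique exon, exon-exon junction and intron reads of each library) and their own pairwise tests as signed fold changes and adjusted p-values, per the file headers. The authors' signed fold changes, a score that is negative where S280D, S280A or WT is lower than the group it is set against, are used as deposited. The genome build is Rnor_6.0, per the submitters' processing notes. Libraries were strand-specific and amplified with 15 PCR cycles, per the labels' protocols, while no source used here names the aligner or says whether the counting used strand. The WT library called replicate 2 here is numbered differently in its description than in its title.

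Exon reads, and separately intron reads, of all 8 libraries entered the quasi-likelihood test of edgeR 4.0.16 under R 4.3.3 (filterByExpr, TMM, 1 coefficient per group, 4 residual degrees of freedom), two-sided, with Benjamini-Hochberg adjustment over all features and a threshold of 0.05. The interaction of read kind and group gave the exon minus intron change, over features that passed both filters. The edgeR test gives no SE, so each SE was derived as the absolute log2 fold change over the square root of the test's F statistic. The biological coefficient of variation was 0.133 on exon and 0.21 on intron reads. Without molecular identifiers, PCR copies of 1 molecule count as separate reads. Replicate numbers were not taken as pairs, since the correlations of same-numbered libraries ran from -0.173 to 0.205. DESeq2 1.42.0, other scalings, filters, reads and left-out libraries were tried as alternatives, of which junction reads were chosen after seeing the data. The scripts were tested on simulated data.

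The clock genes and the lists of partners, kinases, output genes and markers were chosen with earlier results of these data known. All 10 clock genes are named. From the other lists the rule allows up to 4 genes per list and comparison that passed, with the smallest adjusted p, and the subset of these that is described was chosen after their values were seen. A few genes of these lists are not reported here.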

Additional observations from a re-analysis of the deposited data

How the results depend on the processing

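Of the 12 calls of single clock genes, all 12 held with DESeq2, with RLE size factors and with no filter on low counts, and none changed sign in any alternative. Clock and Nr1d2 in S280D against S280A and Clock in S280D against YFP held in 20 of 20 alternatives, and Dbp in S280D against YFP in 11 of 20. On exon reads the number of clock genes called in WT against YFP was 1 with only the 4 libraries compared, 1 on junction reads, 1 with the exon length offset and 0 with lane as a covariate. With lane as a covariate 9 of all 12407 features passed in WT against YFP, beside 2437 without it. The replicate block gave 1 clock gene in WT against YFP, where Nr1d2 went to 0.73 ± 0.23 with an adjusted p of 0.0566, and the pairing it assumes rests on the numbers alone. It changed no other call. In S280D against S280A the number was 2 with an added threshold of 1.5-fold. On intron reads it was 0 in S280D against YFP with lane as a covariate, where 74 of all 12988 features passed, beside 695 without it. Leaving out 1 library at a time gave 0 to 2 calls in WT against YFP, 1 to 4 in S280D against YFP, 0 to 3 in S280A against WT and 2 to 6 in S280D against S280A on exon reads. It gave 0 to 1 in S280D against YFP and 0 to 1 in S280D against S280A on intron reads, and 0 to 2 in S280D against YFP for the exon minus intron change. The cause of these losses was not tested, apart from the fewer libraries that leaving 1 out implies. With the exon length offset 2999 of all 12407 features passed in WT against YFP. No share of all features called is given for left-out libraries, the 4 libraries compared, junction reads, the replicate block or the 1.5-fold threshold. Their counts of clock genes thus cannot be told apart from a shift over all features. Values that were not called changed sign in 53 of 980 recomputations on exon reads and became called in 10.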
